A study of Mus musculus with 3 samples.

Results

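Semaphorins, slits and netrins are secreted or membrane-bound proteins first known for steering growing axons, and they also act on vessels, epithelium and mesenchyme during organ growth. The rows described here were Sema3a, Sema3c, Sema3d, Sema3e, Slit2, Ntn4 and Plxnd1, 7 of 9781 gene rows used from the deposited table. They were chosen by name, with earlier results of these data known. Class 3 semaphorins are secreted and bind plexins, mostly with a neuropilin as co-receptor. Sema3e is known for binding the receptor plexin D1, the product of Plxnd1, without a neuropilin, and plexin D1 is best known in endothelium. Slit2 is a ligand of roundabout receptors. Ntn4 encodes netrin 4, a laminin-related protein of basement membranes.

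The study asked which cells of the developing mouse prostate carry progenitor features, and sequenced single cells of the male urogenital sinus before birth (E18.5_UGS) and of prostate at postnatal days 14 and 35 (P14_Prostate and P35_Prostate), 1 library each. The labels call all 3 normal and give neither genotype nor the number of animals. According to its methods the study worked with R26mTmG/+:Osr1Cre/+ reporter mice of mixed C57BL/6 and 129S1/SvImJ background, in which Cre is driven by Osr1 and switches on a membrane green fluorescent protein; whether these 3 libraries came from such mice is not stated in the labels, and the table's EGFP row is described with the sets. Tissue was dissociated with collagenase and TrypLE.

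The cells of the 3 libraries stand in 1 table and differ only by the ending of the barcode, 1, 2 or 3. No label tied an ending to a tissue, so the endings are called sets 1, 2 and 3, no age is given to them, and no comparison between ages was made. Set 1 holds as many cells as the study's text gives for the urogenital sinus, whereas the other sets equal neither of its other cell numbers, and cell numbers were not used to assign an ending. Sets 1, 2 and 3 held 766, 5350 and 8360 cells after filtering, with medians of 19357, 1738 and 1788 unique molecular identifiers (UMIs, counted RNA molecules) per cell before it. Sets 2 and 3 shared 13 barcodes, sets 1 and 2 shared 1, and sets 1 and 3 shared 0. Cells of a set come from 1 library and are not replicates, so no p-value was computed. Levels are given as CPM, a gene's summed UMIs for each 1000000 UMIs of all genes. Their 95% intervals are exact Poisson ones and cover counting error only, and a sum of 0 is given with the level that 3 UMIs would make. The table's first row is EGFP, a green fluorescent protein, which had 12087 UMIs in 393 of the 766 cells of set 1 (589.3 CPM) and 0 UMIs in sets 2 and 3, where 3 UMIs would make 0.19 and 0.11 CPM.

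Sema3d, Sema3a and Sema3e are consecutive rows of the table on chromosome 5 of GRCm38.p6, the RefSeq assembly that corresponds to mm10, 536 kb and 422 kb apart. Sema3c begins 3318 kb beyond Sema3e, with 4 other rows between them. Slit2 is on chromosome 5 as well (47981291 to 48307735), Plxnd1 on chromosome 6 (115954811 to 115995339) and Ntn4 on chromosome 10 (93641049 to 93745972). The 120 bases before the annotated starts of Sema3c and Sema3e are printed because these chromosome neighbours had the most and nearly the fewest UMIs of the 7 genes. Both are from RefSeq, plus strand, 5′ to 3′, at chr5:17574696-17574815 and chr5:14025156-14025275, with GGGCGG or its reverse complement in capitals.
Sema3c: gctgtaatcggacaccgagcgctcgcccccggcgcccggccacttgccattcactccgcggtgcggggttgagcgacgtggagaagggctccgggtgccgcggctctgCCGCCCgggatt
Sema3e: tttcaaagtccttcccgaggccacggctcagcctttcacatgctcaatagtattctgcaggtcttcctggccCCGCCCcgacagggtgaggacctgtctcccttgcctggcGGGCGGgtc

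Over the full 250 upstream bases, Sema3c held 39 CG dinucleotides and 3 matches to GGGCGG, and Sema3e held 7 and 2. Of 32851 promoters of this length, 32.74% held a match on either strand, and the median was 6 CG dinucleotides with quartiles of 2 and 16. The table's windows for Sema3a, Sema3d, Slit2 and Plxnd1 reach into the gene spans, from another start, and are not described. A match describes letters only.

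Cells fell into 14 clusters, built without the guidance genes, and 12 were named from marker genes. The 391, 1797 and 2680 fibroblast-like cells of sets 1, 2 and 3 lay mostly in clusters 7 and 2 in set 1 and in clusters 1 and 2 in sets 2 and 3. The 117, 1416 and 2701 epithelium-like cells lay mostly in cluster 4 in set 1, and were spread over clusters 3, 4 and 5 in the other sets. Smooth muscle-like cells numbered 70, 1608 and 1945, endothelium-like cells 38, 96 and 197, and glia-like cells 21, 189 and 237. Pericyte-like, neuron-like and leukocyte-like classes had as few as 10, 16 and 25 cells in a set. Among named classes each marker list summed highest in its own class in every set, with 1 exception. In set 1 smooth muscle markers summed to 4888 CPM in smooth muscle-like cells and to 5279 in pericyte-like cells, while erythroid and fibroblast markers reached 6645 and 6036 in the smooth muscle-like cells. In sets 2 and 3 smooth muscle markers summed to 24870 and 23700 there. Glia-like cells carried 7 of 7 glial markers at 6881, 5338 and 6192 CPM, beside fibroblast markers at 2060, 6020 and 5300, of which 1, 1 and 0 of 10 were at 0. Cluster 8 carried 7 of 8 smooth muscle and 10 of 14 epithelial markers. Cluster 12 carried 14 of 14 epithelial markers, but its 10 leading genes held the leukocyte marker Cd52 and 0 epithelial ones, so neither cluster was named.

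**Figure D1:**
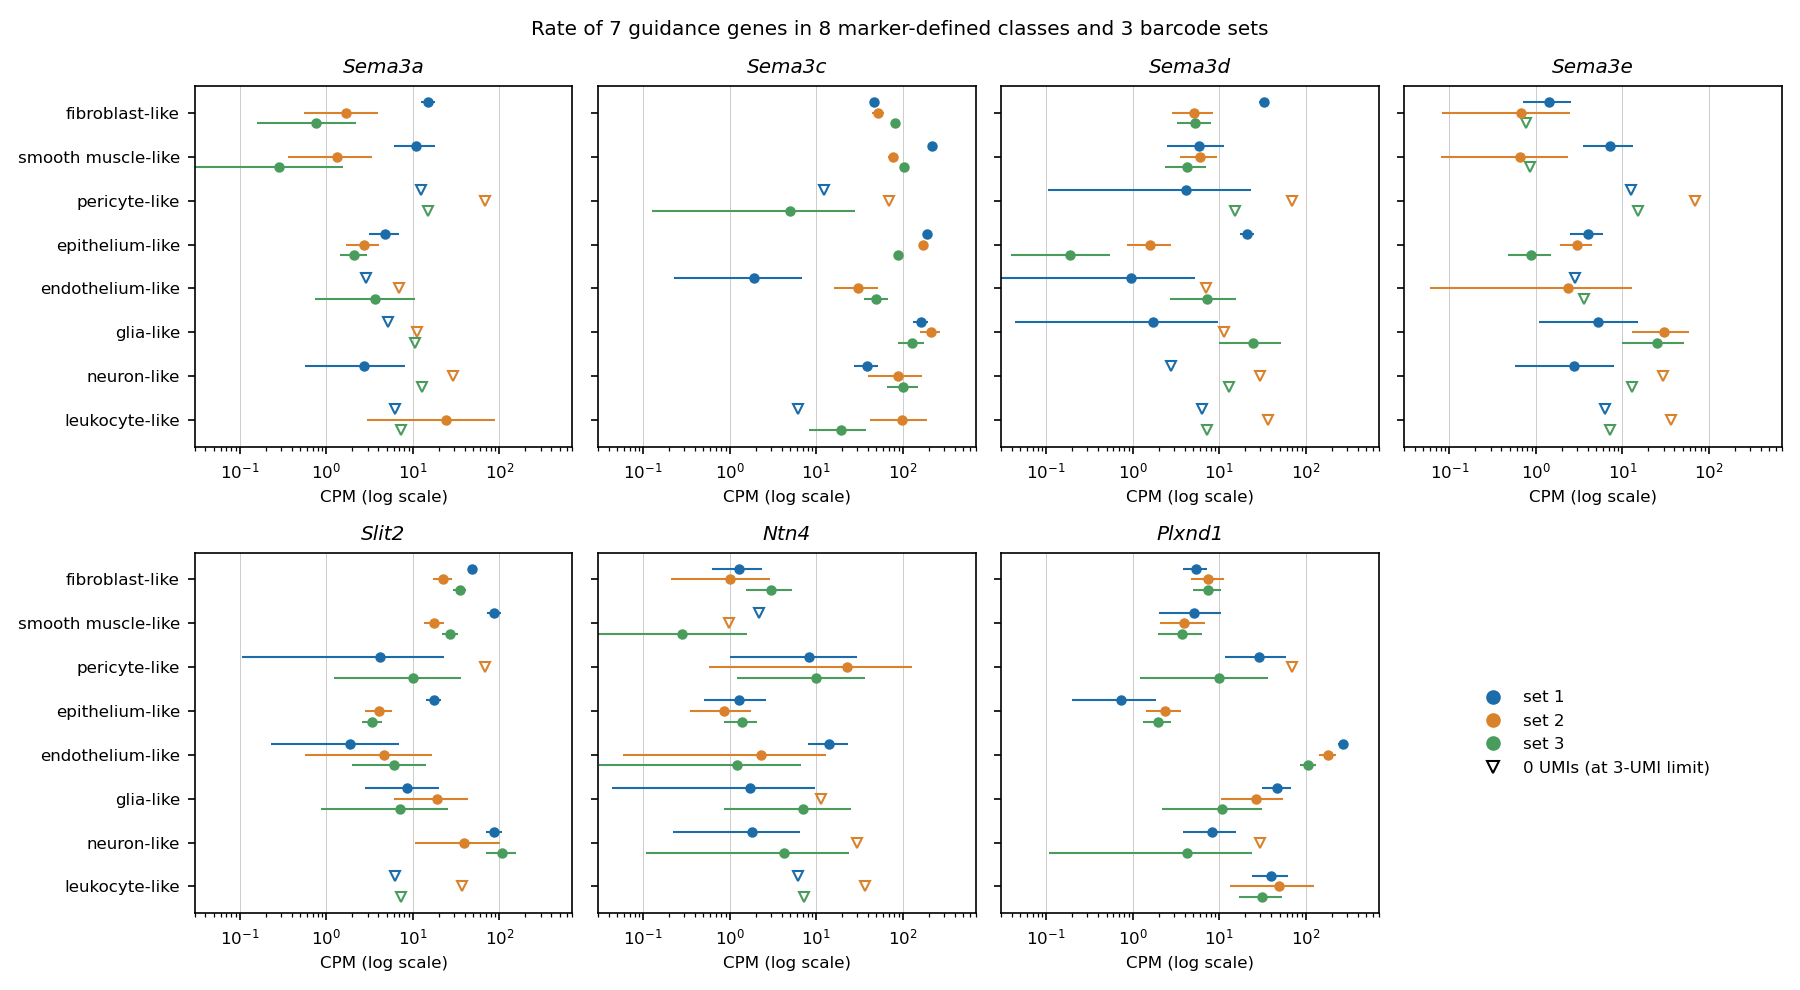
CPM (log axis) of each gene in 8 classes, with 1 point per set and 95% exact Poisson intervals, cut at the left edge where they reach below it; open triangles mark 0 UMIs at the level 3 UMIs would make. Plxnd1 stands highest in endothelium-like cells in all 3 sets (269.8, 179.9 and 106.5), while Sema3c is high in several classes and Ntn4 is low in each.

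Sema3c, which encodes a secreted semaphorin that acts on endothelial and neural crest cells, was found across epithelium, muscle, glia and stroma. The table held 2101, 1954 and 2414 Sema3c UMIs in sets 1, 2 and 3, and epithelium-like cells held 50.3%, 71.2% and 59.0% of them. In epithelium-like cells the level was 191.9 CPM (180.5 to 203.8) in set 1, 171.9 (163.0 to 181.2) in set 2 and 89.48 (84.89 to 94.25) in set 3. In fibroblast-like cells it was 46.65 (41.95 to 51.74), 52.19 (44.28 to 61.12) and 81.32 (72.66 to 90.72). The gap between these pooled classes was wide in sets 1 and 2 and within counting error in set 3. The log2 ratio of epithelium-like over fibroblast-like cells was 2.04 (1.87 to 2.22), 1.72 (1.48 to 1.97) and 0.14 (-0.04 to 0.32). Clusters within each class differed in set 3. Epithelium-like clusters 5, 3 and 4 had 137.7, 110.5 and 61.66 CPM, and fibroblast-like clusters 2, 7 and 1 had 115.4, 56.26 and 55.26.

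Glia-like cells had Sema3c at 163.0, 211.0 and 128.0 CPM, which was 3.49-fold, 4.04-fold and 1.57-fold over fibroblast-like cells of the same set. On the log2 scale this was 1.81 (1.46 to 2.14) in set 1, 2.02 (1.55 to 2.47) in set 2 and 0.65 (0.11 to 1.15) in set 3, so all 3 intervals lay above 0 and those of sets 1 and 2 also above a 2-fold difference. With cells classed one by one, the set 3 value was -0.33 (-1.96 to 0.91). Smooth muscle-like cells had 219.7, 77.09 and 104.5 CPM, 4.71-fold over fibroblast-like cells in set 1 but 1.48-fold and 1.29-fold in sets 2 and 3. The set 1 value comes from the 70 cells with the high erythroid and fibroblast marker sums, whose part in it was not tested. On the log2 scale it was 2.24 (2.01 to 2.46), but 1.00 (-0.48 to 2.30) with cells thinned to 900 UMIs. Glia-like and epithelium-like cells did not differ beyond counting error in any set: their log2 ratio was -0.24 in set 1, 0.30 in set 2 and 0.52 in set 3, and each interval held 0.

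The vascular classes and leukocyte-like cells had the lowest Sema3c in set 1. Pericyte-like cells held 0, 0 and 1 UMIs in 10, 28 and 128 cells, and 3 UMIs would make 12.44 and 68.9 CPM in sets 1 and 2. Endothelium-like cells stood at 1.90 CPM (2 UMIs) in set 1, 30.36 (13 UMIs) in set 2 and 49.63 (41 UMIs) in set 3. Epithelial markers in the same endothelium-like cells summed to 56.04, 1273 and 2164 CPM, with 5 of 14 at 0 in set 1 and 0 of 14 at 0 in sets 2 and 3, the same order of sets as Sema3c. Their part in the Sema3c level was not tested. Leukocyte-like cells held 0 UMIs in set 1, 97.58 CPM (8 UMIs in 25 cells) in set 2 and 19.36 (8 UMIs in 177 cells) in set 3, while epithelial markers summed to 83.4, 3733 and 1002 CPM there and smooth muscle markers to 22.94, 6001 and 718.8; their part was not tested either. In neuron-like cells Sema3c was 38.45, 88.23 and 102.6 CPM, and the intervals of its ratio to fibroblast-like cells held 0 in every set.

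Shares of cells with a Sema3c UMI were compared before and after depth was made equal. Before thinning, 88.9%, 52.2% and 31.6% of epithelium-like cells had a Sema3c UMI, at median depths of 39411, 4064 and 3467 UMIs, against 31.0%, 7.74% and 10.4% of fibroblast-like cells at 16018, 1296 and 1338 UMIs. After each cell was thinned to 900 UMIs, which left out 7, 342 and 693 shallower cells, 13.8% (8.09 to 21.4) of epithelium-like cells in set 1 had one, 15.0% (13.2 to 17.0) in set 2 and 8.71% (7.67 to 9.85) in set 3. Among fibroblast-like cells the shares were then 4.88% (2.97 to 7.52), 4.01% (3.1 to 5.09) and 6.65% (5.67 to 7.75), with exact binomial intervals. Endothelium-like cells gave 0 of 37, 0 of 89 and 5 of 179 thinned cells, below epithelium-like and fibroblast-like cells in each set.

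**Figure D2:**
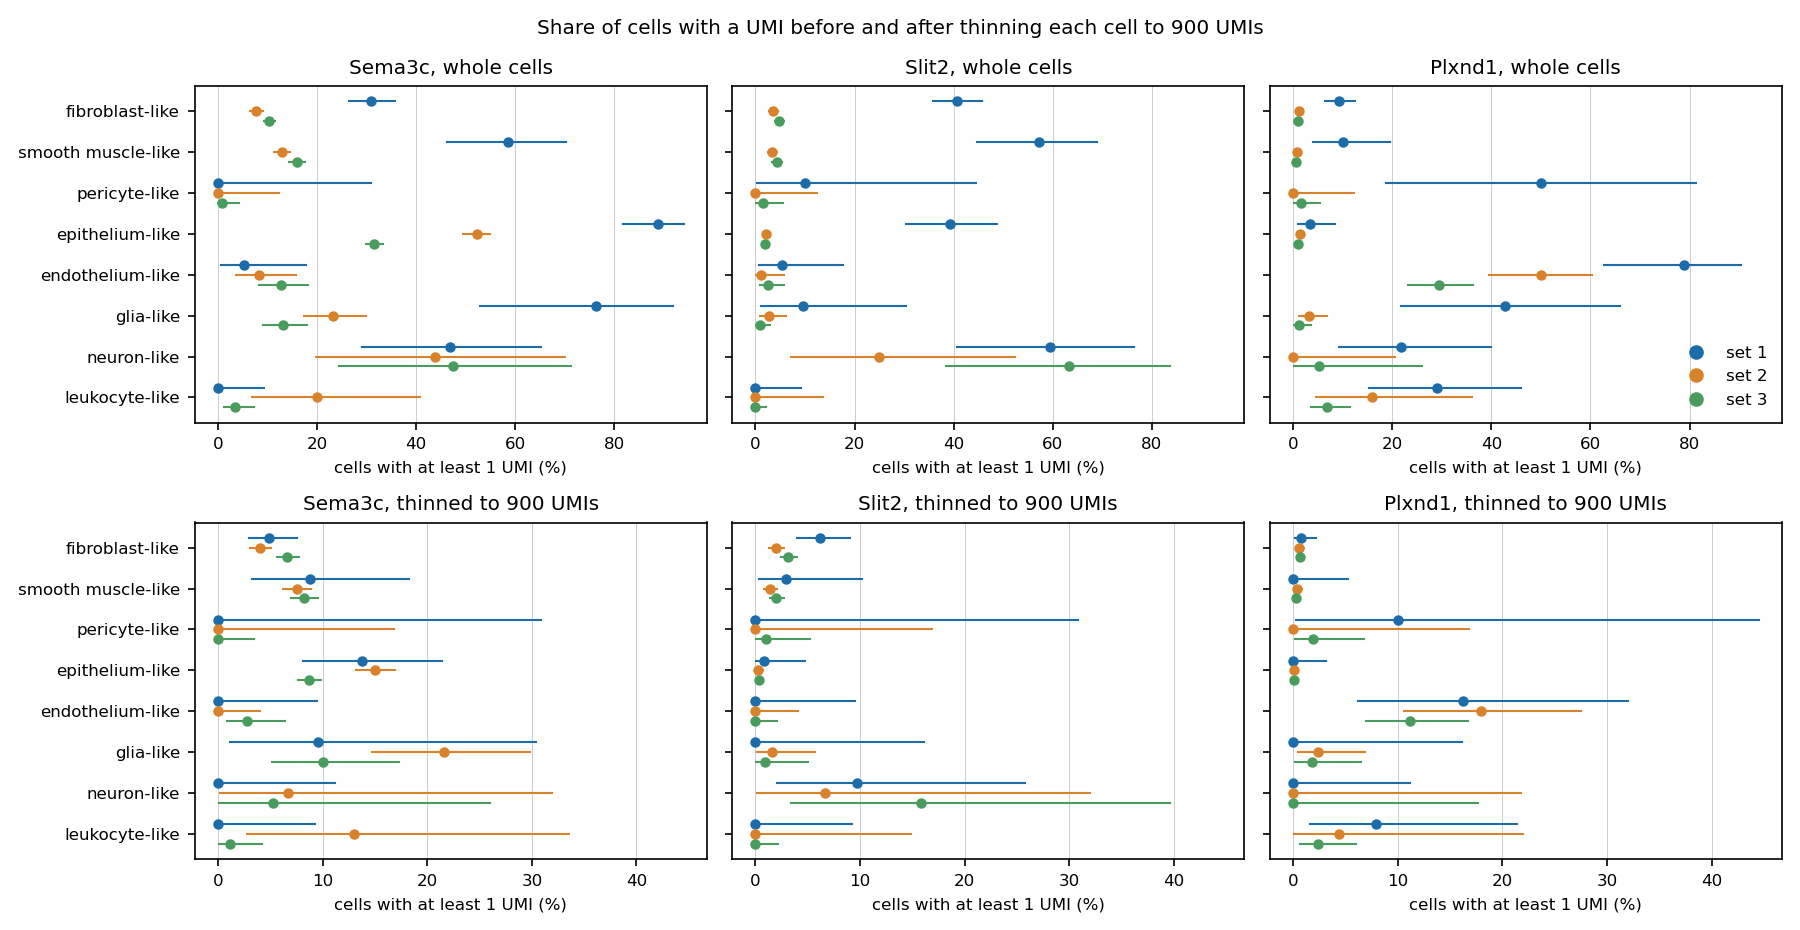
Percent of cells with at least 1 UMI of Sema3c, Slit2 or Plxnd1 in each class and set, with 95% exact binomial intervals, in whole cells (upper row) and in cells thinned to 900 UMIs (lower row, a different axis range). For Plxnd1 in endothelium-like cells sets 1, 2 and 3 stand at 79.0%, 50.0% and 29.4% before and at 16.2%, 17.98% and 11.2% after thinning, whereas for Slit2 in fibroblast-like cells set 1 stays above the others after it (6.17%, 1.94% and 3.13%).

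Within the epithelium Sema3c was higher in cluster 5 than in cluster 4 in each set. Cluster 5 was led by Lamb3, a subunit of the laminin of epithelial basement membranes, Sfn and Serpinb5, cluster 3 by Lgals7, Serpinb5 and Fmo6, and cluster 4 by Asprv1, Clca1 and Wfdc3. Cluster 5 had 269.0, 205.2 and 137.7 CPM and cluster 4 had 182.0, 127.1 and 61.66. The log2 ratio of cluster 5 over cluster 4 was 0.56 (0.33 to 0.79), 0.69 (0.52 to 0.86) and 1.16 (0.99 to 1.33), above 0 in each set. Cluster 3 had 205.9 and 110.5 CPM in sets 2 and 3, above cluster 4 in both, and only 2 cells in set 1. The set 1 value of cluster 5 came from 21 cells. Among fibroblast-like clusters of set 1, cluster 2 had 49.86 CPM, cluster 7 had 46.32 and cluster 1 had 7.79 from 2 UMIs, with a log2 ratio of cluster 2 over cluster 1 of 2.68 (0.80 to 5.73). Cluster 2 had 115.4 CPM in set 3 against 55.26 in cluster 1 and 56.26 in cluster 7, but 53.09, 47.33 and 62.20 in set 2, where no pair differed beyond counting error.

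Sema3d, another secreted semaphorin, was concentrated in set 1. Its rate there was highest in fibroblast-like cluster 2 (66.39 CPM) and epithelium-like cluster 5 (59.16, from 42 UMIs in only 21 cells). Its UMIs numbered 395, 49 and 56 in sets 1, 2 and 3. Fibroblast-like cells had 32.62 CPM (28.71 to 36.91) in set 1, 5.08 (2.85 to 8.39) in set 2 and 5.32 (3.29 to 8.13) in set 3; these cells lay mostly in clusters 7 and 2 in set 1 and in clusters 1 and 2 in the others, and each set is 1 library. Cluster 2, led by Ptx3, Dpt and Lum, held 233 of the 251 fibroblast-like Sema3d UMIs of set 1, at 66.39 CPM against 4.58 in cluster 7 and 0 UMIs in cluster 1, a log2 ratio of 3.86 (3.17 to 4.64) over cluster 7. Cluster 2 was also above cluster 1 in set 3, by 2.75 (0.96 to 5.16) from 17 against 3 UMIs, and in set 2 it stood at 10 against 3 UMIs with an interval that held 0.

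Epithelium-like cells had Sema3d at 20.88, 1.61 and 0.19 CPM, from 115, 13 and 3 UMIs. The log2 ratio to fibroblast-like cells was -0.64 (-0.97 to -0.32), -1.66 (-2.85 to -0.49) and -4.82 (-7.21 to -3.07), below 0 in each set but short of 2-fold in set 1. Within the epithelium of set 1, cluster 5 had 59.16 CPM and cluster 4 had 15.29, a log2 ratio of 1.95 (1.37 to 2.52). Smooth muscle-like cells stayed between 4.24 and 5.93 CPM in all 3 sets. Glia-like cells held 1, 0 and 7 UMIs, the last from 7 of 237 cells at 24.88 CPM (10.00 to 51.27). Neuron-like and leukocyte-like cells held 0 Sema3d UMIs in every set.

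Sema3a, the semaphorin best known for repelling sensory axons, had 171, 38 and 43 UMIs. The class with most of them was not the same in every set: fibroblast-like cells held 67.3% in set 1, while epithelium-like cells held 57.9% and 76.7% in sets 2 and 3. Fibroblast-like cells had 14.94 CPM (12.34 to 17.94) in set 1, 1.70 (0.55 to 3.96) in set 2 and 0.76 (0.16 to 2.22) in set 3. Epithelium-like cells had 4.72 (3.08 to 6.92), 2.72 (1.70 to 4.11) and 2.08 (1.43 to 2.91), with less spread between sets. The log2 ratio of epithelium-like over fibroblast-like cells was therefore -1.66 (-2.34 to -1.04) in set 1 and 0.68 (-0.76 to 2.44) and 1.45 (-0.22 to 3.80) in sets 2 and 3. In set 1 the 3 fibroblast-like clusters did not differ beyond counting error, at 15.59, 13.68 and 16.04 CPM in clusters 1, 2 and 7. The cluster 1 value came from 4 UMIs, so its intervals were wide. In set 3 the epithelial UMIs favoured cluster 5 (21 UMIs, 5.27 CPM) over cluster 4 (4 UMIs, 0.44 CPM). No Sema3a UMI was found in glia-like or pericyte-like cells of any set, and 3 UMIs would make 5.20, 11.3 and 10.66 CPM in glia-like cells.

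Sema3e, the known ligand of plexin D1, was sparse, with 79, 40 and 21 UMIs. Epithelium-like cells held 27.85%, 60% and 66.67% of them in sets 1, 2 and 3. Glia-like cells had the highest rate in sets 2 and 3, at 30.14 CPM (13.01 to 59.38; 8 UMIs in 7 of 189 cells) and 24.88 (10.00 to 51.27; 7 UMIs in 6 of 237 cells), and 5.20 (1.07 to 15.20; 3 UMIs) in set 1. Fibroblast-like cells had 1.43, 0.68 and 0 CPM. The log2 ratio of glia-like over fibroblast-like cells was 1.86 (-0.62 to 3.78) in set 1 and 5.47 (3.15 to 8.75) in set 2; in set 3, with 0 fibroblast UMIs, the log2 ratio against the level of 3 UMIs was 5.03, with a lower limit of 4.34. Epithelium-like cells had 3.99, 2.96 and 0.88 CPM, and glia-like cells exceeded them by log2 ratios of 3.35 and 4.82 in sets 2 and 3. Over fibroblast-like cells the epithelium-like log2 ratio was 1.48 (0.38 to 2.67) in set 1 and 2.13 (0.12 to 5.25) in set 2. Smooth muscle-like cells had the highest rate of a named class in set 1, within counting error of glia-like cells, at 7.25 CPM from 10 UMIs. Their log2 ratio to fibroblast-like cells was 2.34 (0.95 to 3.72) there, and they held 2 and 0 UMIs in sets 2 and 3. In set 1 the most Sema3e UMIs of any cluster, 24 in 11 of 32 cells at 14.06 CPM, were in unnamed cluster 12, which is led by Wfdc15b, Folr1 and Sptssb and has Upk1a, a uroplakin of bladder-type surface epithelium, among its 10 leading genes. Endothelium-like cells, where Plxnd1 was high, held 0, 1 and 0 Sema3e UMIs.

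**Figure D3:**
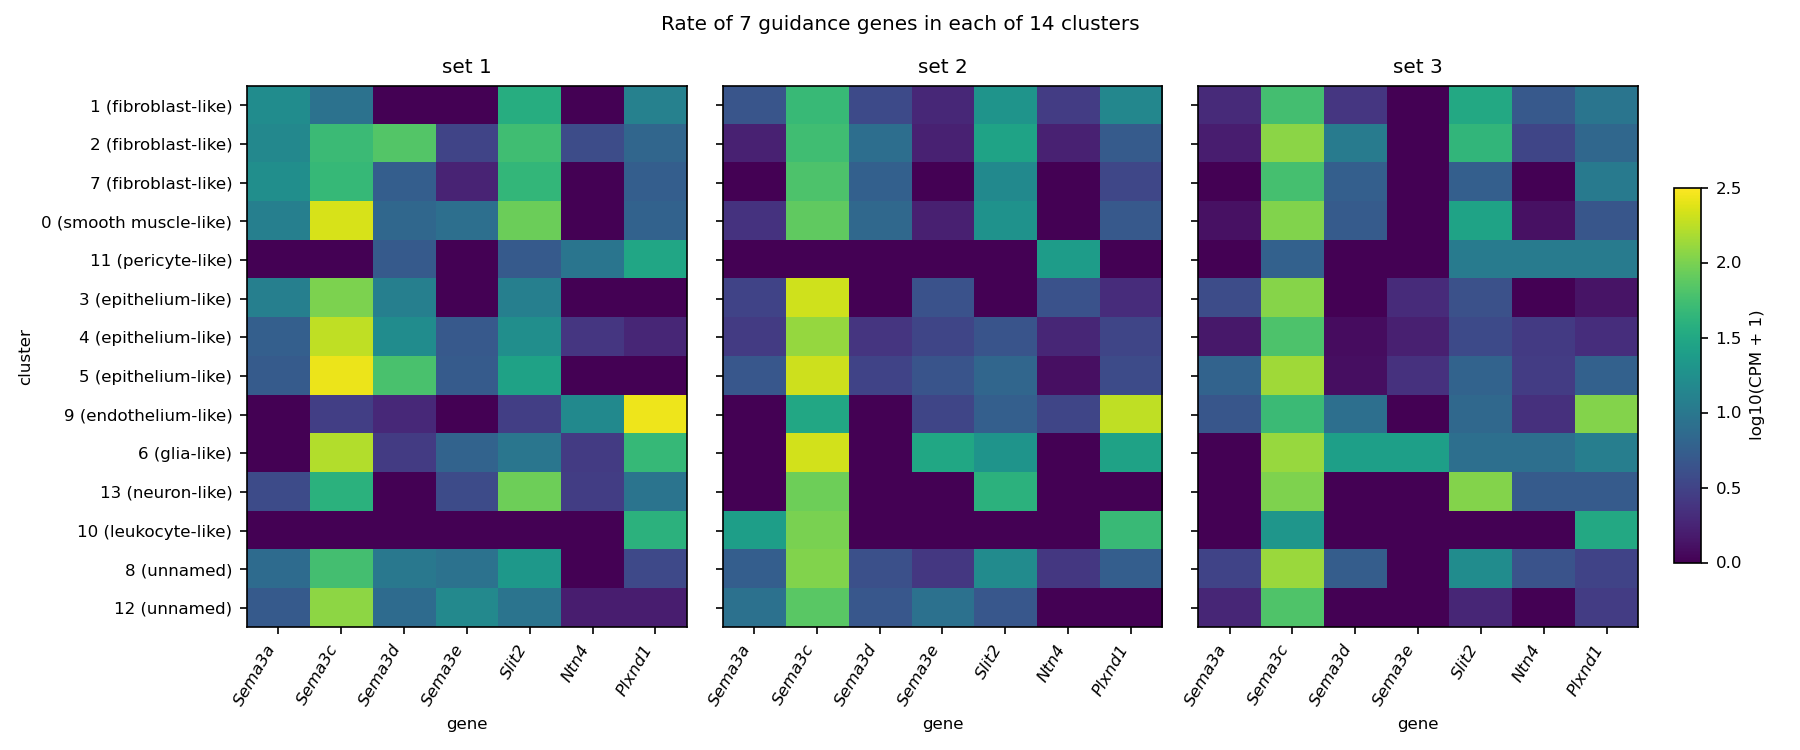
Colour gives log10 of CPM plus 1 for each gene (columns) in each cluster (rows, with its class) in sets 1, 2 and 3. In set 1 Sema3d is bright in fibroblast-like cluster 2 (66.39) and epithelium-like cluster 5 (59.16), and Plxnd1 is brightest in cluster 9 in every set.

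Slit2 was a gene of stroma, muscle and neuron-like cells. It had 718, 174 and 336 UMIs, of which fibroblast-like cells held 51.5%, 37.4% and 40.8% and smooth muscle-like cells 16.6%, 31.0% and 28.6%. The level in fibroblast-like cells was 48.08 CPM (43.31 to 53.24), 22.03 (17.00 to 28.08) and 34.71 (29.14 to 41.03), and in smooth muscle-like cells 86.29 (71.49 to 103.3), 17.79 (13.36 to 23.21) and 27.12 (21.97 to 33.12). Smooth muscle-like cells exceeded fibroblast-like cells in set 1, by a log2 ratio of 0.84 (0.53 to 1.15), but with cells thinned to 900 UMIs the ratio was -1.13 (-4.25 to 0.88). These are the 70 cells with the high erythroid and fibroblast marker sums, whose part in the value was not tested. In sets 2 and 3 the classes did not differ beyond counting error. Neuron-like cells ranked first in each set, level with smooth muscle-like cells in set 1, at 86.97, 39.21 and 106.9 CPM from 95, 4 and 25 UMIs. Their log2 ratio to fibroblast-like cells was 0.86 and 1.62 in sets 1 and 3, with lower bounds of 0.51 and 0.95, and in set 2 the interval held 0.

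Epithelium-like and endothelium-like cells had less Slit2 than fibroblast-like cells of the same set, in all 3 sets. In epithelium-like cells it was 17.43 CPM (14.12 to 21.28), 4.08 (2.81 to 5.72) and 3.40 (2.55 to 4.43). The log2 ratio was -1.46 (-1.80 to -1.14) in set 1, -2.43 (-3.09 to -1.81) in set 2 and -3.35 (-3.84 to -2.89) in set 3. Fibroblast markers summed to 278.7, 1558 and 918.7 CPM in these epithelium-like cells, with 0 of 10 at 0 in any set. Endothelium-like cells held 2, 2 and 5 Slit2 UMIs, log2 ratios of -4.66 (-7.71 to -2.80), -2.24 (-5.31 to -0.33) and -2.52 (-4.17 to -1.26). Leukocyte-like cells held 0 UMIs in each set. After thinning, 6.17%, 1.94% and 3.13% of fibroblast-like cells had a Slit2 UMI, against 0.86%, 0.28% and 0.34% of epithelium-like cells and 0% of endothelium-like cells, where 0 of 37, 0 of 89 and 0 of 179 were found. The share of fibroblast-like cells before thinning was 40.7%, 3.51% and 4.81%, and that of epithelium-like cells 39.3%, 2.12% and 1.93%. The 3 fibroblast-like clusters did not differ in Slit2 beyond counting error in set 1. They had 53.00, 44.54 and 35.07 CPM in clusters 2, 7 and 1, the last from 9 UMIs. In set 3 cluster 7 was lower, with 1 UMI in 79 cells.

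Ntn4 had the fewest UMIs in sets 1 and 2, 38, 13 and 44 over the 3 sets, and no class stood out in each set. Endothelium-like cells of set 1 had 14.25 CPM (7.97 to 23.50), but these 15 UMIs lay in 3 of 38 cells, and sets 2 and 3 had 1 UMI each. Pericyte-like cells held 2, 1 and 2 UMIs. Epithelium-like cells had 1.27, 0.86 and 1.38 CPM and fibroblast-like cells 1.30, 1.02 and 3.04, with intervals of the ratio that held 0 in each set. Smooth muscle-like cells held 0, 0 and 1 UMIs, where 3 UMIs would make 2.18 and 0.99 CPM in sets 1 and 2, and leukocyte-like cells held 0 throughout.

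Plxnd1, the receptor of the list, was an endothelial gene in all 3 sets. Endothelium-like cells had 269.8 CPM (239.3 to 303.0; 284 UMIs), 179.9 (141.9 to 224.8; 77 UMIs) and 106.5 (85.44 to 131.2; 88 UMIs), and held 70.8%, 53.5% and 47.8% of the 401, 144 and 184 Plxnd1 UMIs although they were 4.96%, 1.79% and 2.36% of cells. Fibroblast-like cells had 5.33, 7.46 and 7.35 CPM. The log2 ratio was 5.66 (5.19 to 6.17), 4.59 (3.89 to 5.35) and 3.86 (3.24 to 4.52), or 50.6-fold, 24.1-fold and 14.5-fold. The endothelial marker sum in the same cells was 5235, 4977 and 4642 CPM, and the epithelial one 56.04, 1273 and 2164.

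Leukocyte-like and glia-like cells came next for Plxnd1. Leukocyte-like cells had 39.62, 48.79 and 31.46 CPM from 19, 4 and 13 UMIs, above fibroblast-like cells in each set with log2 ratios of 2.89, 2.71 and 2.10. Endothelial markers in these leukocyte-like cells summed to 27.11, 24.40 and 9.68 CPM, with 10, 10 and 9 of 12 at 0. Glia-like cells had 46.82, 26.37 and 10.66 CPM from 27, 7 and 3 UMIs. Over fibroblast-like cells the log2 ratio was 3.14 (2.38 to 3.87), 1.82 (0.35 to 3.1) and, for set 3, 0.54 (-1.82 to 2.23). Endothelial markers in the glia-like cells summed to 265.3, 64.04 and 99.53 CPM, with 0, 7 and 8 of 12 at 0, and their part was not tested. Pericyte-like cells had 7 UMIs in set 1 (29.03 CPM), 0 in set 2 and 2 in set 3. At the low end, epithelium-like cells had 0.73, 2.35 and 1.95 CPM, log2 ratios of -2.88 (-4.82 to -1.41), -1.67 (-2.63 to -0.71) and -1.91 (-2.69 to -1.13). With cells thinned to 900 UMIs the ratios of sets 2 and 3 were -1.99 (-5.24 to 0.29) and -2.53 (-4.96 to -0.71), and set 1, with a UMI in 0 of 116 epithelium-like and 3 of 389 fibroblast-like cells, could not be measured. In set 3 the epithelial UMIs were mostly in cluster 5, at 5.02 CPM against 1.10 in cluster 4 and 0.35 in cluster 3.

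**Figure D4:**
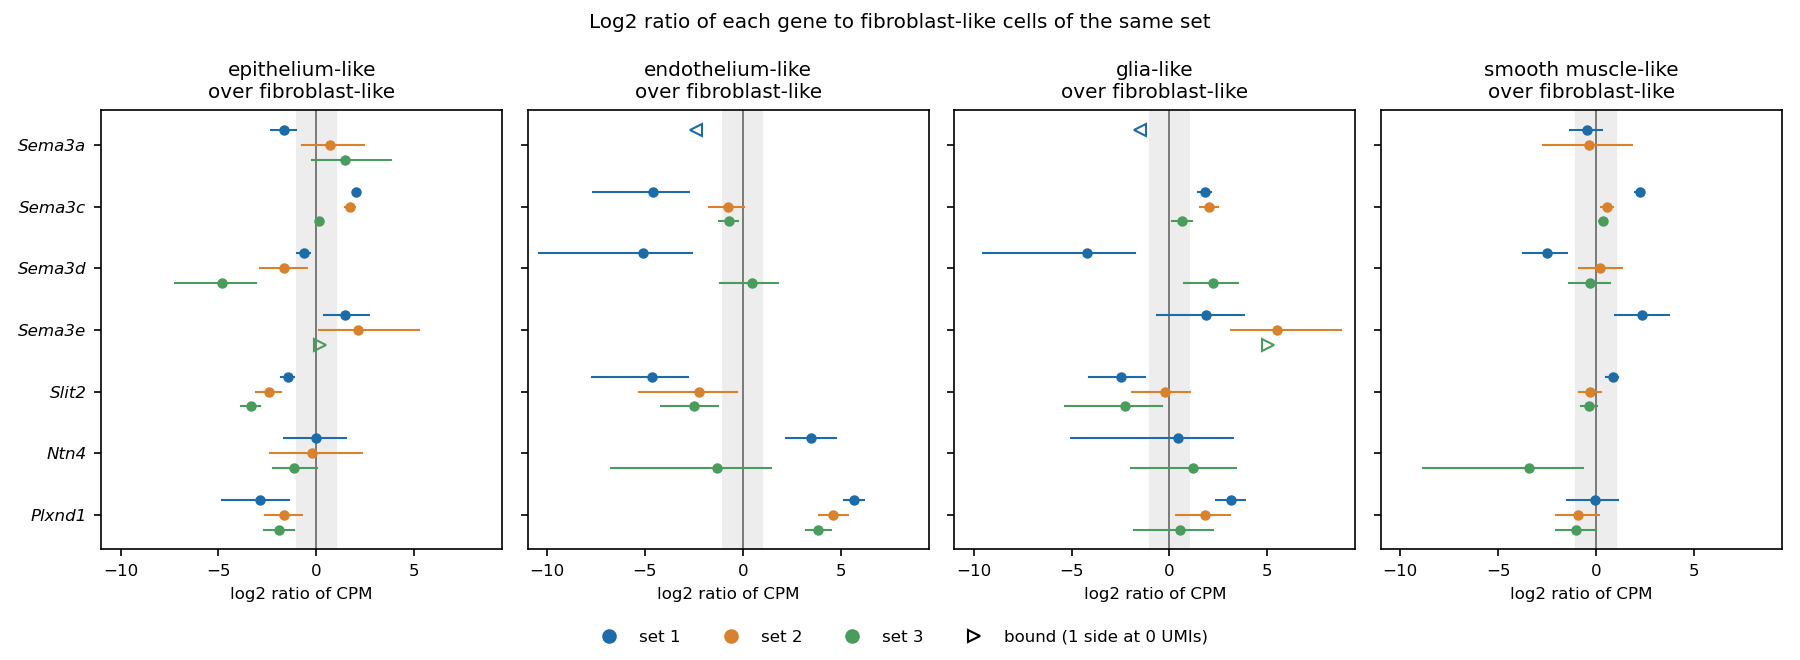
Log2 ratio of each gene in 4 classes over fibroblast-like cells of the same set, with 95% exact intervals from the split of UMIs; triangles are bounds where 1 side had 0 UMIs, gaps could not be measured, and the grey band spans less than 2-fold. Slit2 and Plxnd1 lie left of 0 in epithelium-like cells and on opposite sides in endothelium-like cells in all 3 sets.

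Across all genes, a gene was called higher or lower in a class where its ratio to fibroblast-like cells was at least 2-fold with an interval that excluded 0 in each of the 3 sets. Over epithelium-like cells, 6.88% of 7227 measurable genes were called higher and 12.6% lower, and of the 7 guidance genes 0 were called higher and 2, Slit2 and Plxnd1, lower. Over endothelium-like cells 5.3% of 5872 genes were called higher and 4.43% lower; 3 of the 7 could be measured in all sets, with Plxnd1 called higher, Slit2 lower and Sema3c neither. For glia-like cells the shares over all genes were 3.66% and 2.62% and for smooth muscle-like cells 1.23% and 2.18%, and 0 of 4 measurable members were called in either direction in either class. The median log2 ratio of the 7 genes in epithelium-like cells was -0.64, -0.23 and -1.14 in sets 1, 2 and 3, beside -0.24, -0.12 and 0.07 over all measurable genes. Measurability needed UMIs in a class or its partner, so the counts of members are small and nothing particular to the list follows from them.

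The wider families placed some receptors beside these ligands. Of the 53 semaphorin, plexin, neuropilin, slit and netrin family genes listed, 27 had a row, 20 besides the 7. Nrp2 was the only neuropilin with a row, and no roundabout receptor had one, so these could not be described. In epithelium-like cells 17 of the 20 could be measured, with 2 called higher and 6 lower, beside 6.88% and 12.6% of all measurable genes. Sema4a and Sema4b, membrane-bound class 4 semaphorins, were the higher ones: Sema4a had 19.43, 11.24 and 35.21 CPM against 2.08, 2.03 and 3.80 in fibroblast-like cells, and Sema4b 40.30, 35.32 and 15.78 against 17.15, 13.56 and 4.05. The lower ones were Sema4c, Sema6c, Sema6d, Plxnc1, Ntng1 and Unc5c. Unc5c, a netrin receptor, had 2.54, 1.11 and 0.88 CPM in epithelium-like cells against 25.34, 10.85 and 12.41 in fibroblast-like ones.

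In endothelium-like cells 13 of the 20 could be measured, and 4 were called higher, beside 5.3% of all measurable genes: Sema6d, Plxna2, Nrp2 and Srgap2. Nrp2, the neuropilin 2 co-receptor of class 3 semaphorins, had 100.7, 282.6 and 428.5 CPM there against 31.32, 33.21 and 60.29 in fibroblast-like cells, log2 ratios of 1.69, 3.09 and 2.83. Sema6d, a transmembrane semaphorin, had 82.64, 133.1 and 135.6 against 16.50, 31.52 and 14.44. Plxna2, a plexin of class A, had 50.34, 74.74 and 115.0 against 22.74, 12.54 and 19.25. Ntng1 was the only one of the 20 called lower in these cells, beside 4.43% of all measurable genes. The 4 genes called higher were not high in endothelium-like cells alone. Plxna2 had 52.28 CPM in epithelium-like cells of set 1, and Nrp2 had 169.5 and 131.5 CPM in glia-like cells of sets 2 and 3. Sema6d had 222.3 and 99.53 CPM in glia-like cells of sets 2 and 3, and Srgap2 had 90.41 CPM in those of set 2.

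In glia-like cells 3 of 15 measurable family genes were called higher and 0 lower, beside 3.66% and 2.62% of all measurable genes. Plxnb3, a class B plexin, had 24.28, 33.90 and 53.32 CPM from 14, 9 and 15 UMIs, against 0, 1 and 1 UMIs in fibroblast-like cells. Plxna4 had 20.81, 56.51 and 14.22 against 1.69, 2.37 and 3.29, and Srgap1, a GTPase-activating protein that acts with roundabout receptors, had 55.49, 105.5 and 39.10 against 26.51, 34.57 and 6.08. Nrp2 in epithelium-like cells took opposite sides in the sets, with log2 ratios to fibroblast-like cells of -2.34 (-2.91 to -1.82) and -2.32 (-2.60 to -2.04) in sets 1 and 3 and 1.37 (1.07 to 1.69) in set 2. In smooth muscle-like cells 17 could be measured, and Srgap1 was the only one called, lower, at 8.70, 11.53 and 1.13 CPM. Over all measurable genes 1.23% were called higher and 2.18% lower there.

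**Figure D5:**
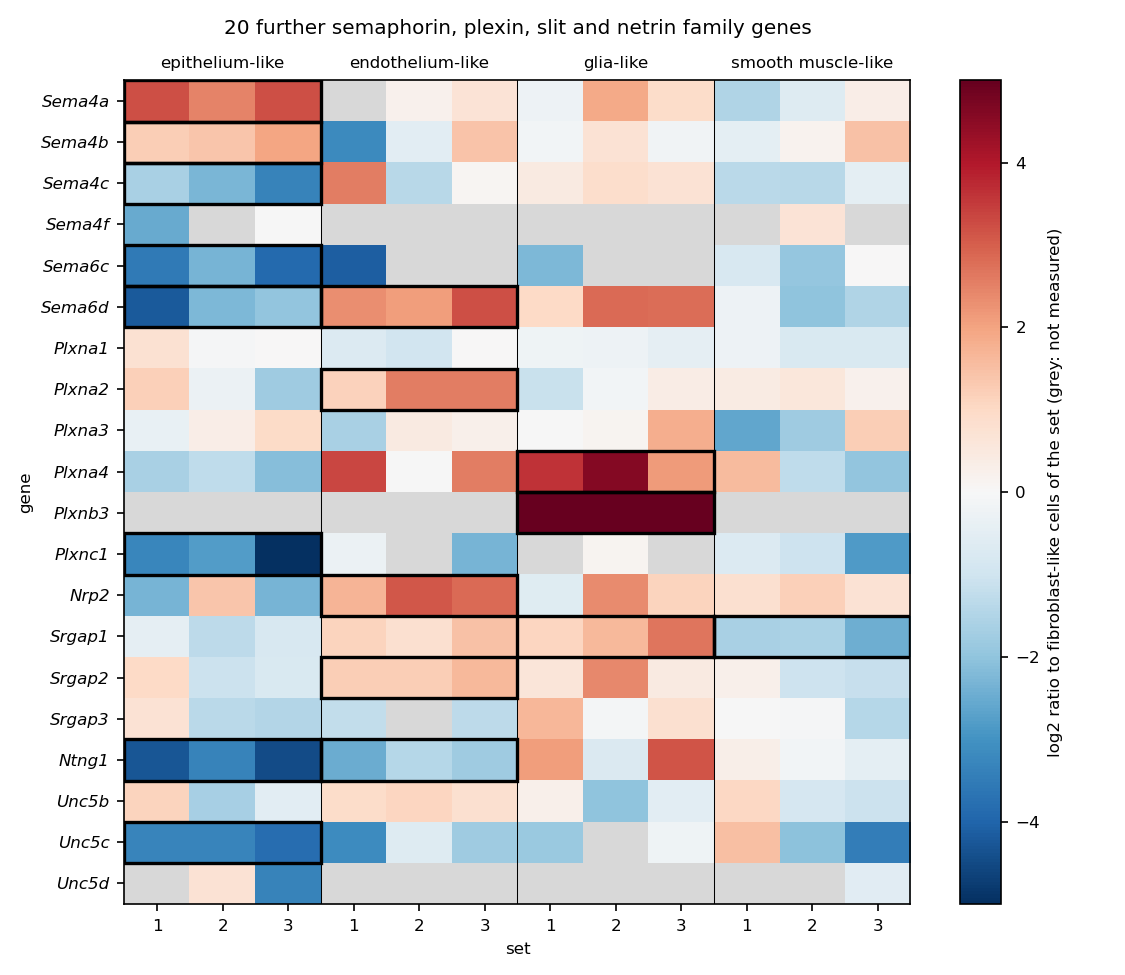
Colour gives the log2 ratio of 20 further family genes (rows) in 4 classes over fibroblast-like cells of the same set, 1 column per set, bounds included and grey where no ratio could be measured; colours are cut at -5 and 5. Boxes mark genes at least 2-fold apart in the same direction in all 3 sets, such as Nrp2 in endothelium-like and Plxnb3 in glia-like cells.

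Genes whose pattern over classes was most like that of each member were listed from Pearson's r of log2 of CPM plus 5, over 21 pairs of class and set with 20 or more cells, each set centred, among 5950 genes. The points share libraries and depth, so r is a description. Plxnd1 was most like Abca1 (r = 0.90), Prcp and Ppp1r16b. Sema3e was most like Kcna1 (r = 0.93), Gpr37l1 and Col20a1, and Slit2 like Mmp16 (r = 0.91), Adgrb2 and Smarca1. For Sema3c the nearest was Atxn2 (r = 0.89), then Epb41l5 and Xrcc5. The nearest genes of the other members were Rbl2 for Sema3a (r = 0.77), Rassf8 for Sema3d (r = 0.69) and Pcdh19 for Ntn4 (r = 0.82).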

How the data were processed

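Cells of E18.5_UGS, P14_Prostate and P35_Prostate were sequenced with 10x 3′ kits (v3 in the labels, v2 in the study's methods). The authors counted UMIs with Cell Ranger 3.1.0 on mm10 with added mGFP and hARtg sequences, filtered out empty and multiplet droplets and cells with much mitochondrial RNA, and deposited values on a natural log scale, ln(1 + 10000 × UMIs / total UMIs of the cell), for all cells in 1 table. Whole UMIs and cell totals were recovered from these natural log values: 100% of 11120281 values above 0 were whole within a tolerance of 0.05. The table had 9784 rows and was held in part, ending on chromosome 8, so its rows carried 49.4% to 52.7% of UMIs; genes beyond were not analysed here. An incomplete row and 2 rows with a repeated name were left out, and 97 cells with fewer than 200 genes.

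Cells were clustered in Seurat 5.3.0 (R 4.3.3) after integration of the sets. A marker was carried by a cluster where at least 10% of cells had it at 2 or more times the median cluster; a name needed 3 carried markers 1.5 times the share of the next class, and no other class with more markers among the 10 leading genes. Scrublet marked 3, 0 and 0 cells, which were kept. Ratios have exact intervals from the split of UMIs; 0 sums were set at 3 UMIs. The members, lists and naming rule were chosen with earlier results of these data known. The named genes are the members, the listed family genes with a row, markers, and the 3 genes most like each member. Scripts were tested on simulated data.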

Additional observations from a re-analysis of the deposited data

Results flagged for a closer look

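Sema3d in glia-like over fibroblast-like cells took opposite directions in different sets. The log2 ratio was -4.23 in set 1 (1 against 251 UMIs, interval -9.54 to -1.74) and 2.23 in set 3 (7 against 21 UMIs, interval 0.75 to 3.51); set 2 had 0 against 15 UMIs and gave no ratio. The difference between the sets was not tested, since each is 1 library. Nearly all fibroblast-like Sema3d UMIs of set 1, 233 of 251, were in cluster 2.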

How the results depend on the processing

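The 68 ratios of single members were recomputed under up to 6 alternatives, 348 values in all: 317 stayed within the counting interval, 29 moved further and 2 reversed. The reversed ones were Sema3c in glia-like over fibroblast-like cells of set 3 (-0.33, interval -1.96 to 0.91, with cells classed one by one) and Slit2 in smooth muscle-like over fibroblast-like cells of set 1 (-1.13, interval -4.25 to 0.88, with cells thinned to 900 UMIs). Of 64 recomputed counts of called members 55 stayed within 1.5 times. Without integration, too few set 1 cells could be named fibroblast-like (5 against 391), and the counts became 0 lower in epithelium-like and 0 higher and 0 lower in endothelium-like cells, with 0 of the 7 members measurable in all 3 sets, so these counts say nothing about the members. After thinning, 1 member (Slit2) was called lower in epithelium-like cells (4.96% of all measurable genes) and 0 in endothelium-like cells (1.75%); Plxnd1 in the former could then not be measured in set 1, nor Slit2 in the latter in sets 1 and 2, and in set 3 the bound for Slit2 was -0.96. A ratio of 1.5 or more gave 1 member higher in glia-like cells (Sema3c; 5.05% of all measurable genes). Under it, and with a call in at least 2 of 3 sets, 3 members were lower in epithelium-like cells, Sema3d beside Slit2 and Plxnd1 (15.9% and 20.1% of genes). A call in at least 2 of 3 sets gave 2 of 7 higher in epithelium-like cells (Sema3c and Sema3e; 11.8% of genes), and of 6 measurable members 3 higher (Sema3c, Sema3e and Plxnd1; 8.15%) and 1 lower (Slit2; 5.12%) in glia-like cells. Leaving out clusters led by mitosis genes was not run, since no cluster was led by them. No paired analysis was possible because no group had a second library and no test was made. Sema3a, Sema3d, Sema3e and Ntn4 had at most 56 UMIs each in sets 2 and 3, which limits the precision of their rates there.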
